A study of Mus musculus with 12 samples.

Results

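Itgb1, Sdc1, Cd44 and Cav1 are 4 cell-surface adhesion and caveolar genes, and they were followed on 12 two-colour cDNA arrays of primary mouse keratinocytes. They were picked by gene symbol, with their measured deltaNp63alpha-to-beta-galactosidase ratios already known, and each had 1 probe in the platform annotation. They make up 4 of the 6774 named genes of the arrays. Because the ratios chose the genes, the ratios are given below as a description with no test. The difference between calcium levels and the part of the signal shared by both dye orientations were not used in the choice and were tested.

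All cells were primary skin keratinocytes of C57Bl/6NCr mice, transduced with an adenovirus 41 hours before RNA was taken. The adenovirus encoded deltaNp63alpha, the p63 form without the amino-terminal transactivation domain that prevails in basal keratinocytes, or beta-galactosidase, the bacterial enzyme that served as control. Both kinds of cells were held in low calcium (0.05 mM) or in high calcium (0.12 mM, the level that starts differentiation) for 24 hours. Each array set deltaNp63alpha RNA against beta-galactosidase RNA of the same calcium level. Each level had 3 repeats, and each repeat was a dye-swap pair: a forward array with deltaNp63alpha in Cy5 and a reversed array with deltaNp63alpha in Cy3. The submitters call the 12 arrays technical repeats, so every SE and p below measures the spread between arrays and not between cultures. Each SE comes from a fit that pools the spread of both calcium levels and borrows from all rows. It can therefore be smaller than the pairs of a gene at that level alone would give. The labels do not say how many mice, or of which age and sex, gave the cells. The controls carry an adenovirus too, so no untransduced cell enters any value.

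Integrin beta-1, the product of Itgb1, pairs with many alpha subunits to bind collagen, laminin and fibronectin, and it is a classical marker of basal and stem-like keratinocytes. Syndecan-1 (Sdc1) is a transmembrane heparan sulphate proteoglycan of epithelia, and CD44 (Cd44) is the main cell-surface receptor for hyaluronan. Caveolin-1 (Cav1) is the scaffold protein of caveolae, the flask-shaped pits of the plasma membrane. Keratinocytes leave the basement membrane as they differentiate, and in culture this programme is started by raising calcium.

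The proximal promoters of the 4 genes are shown because the genes are described together and the transduced protein is a DNA-binding factor. The windows are the 250 bases before each RefSeq gene start on the mouse build GRCm38.p6, written 5' to 3' on the strand of the gene. Capitals mark matches on either strand to the GC box (GGGCGG) or the TATA box (TATAAA).
Itgb1: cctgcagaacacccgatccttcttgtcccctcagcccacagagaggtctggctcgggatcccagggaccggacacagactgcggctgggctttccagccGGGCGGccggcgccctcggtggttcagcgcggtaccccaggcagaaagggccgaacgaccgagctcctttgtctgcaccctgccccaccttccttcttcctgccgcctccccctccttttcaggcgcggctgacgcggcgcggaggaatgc
Sdc1: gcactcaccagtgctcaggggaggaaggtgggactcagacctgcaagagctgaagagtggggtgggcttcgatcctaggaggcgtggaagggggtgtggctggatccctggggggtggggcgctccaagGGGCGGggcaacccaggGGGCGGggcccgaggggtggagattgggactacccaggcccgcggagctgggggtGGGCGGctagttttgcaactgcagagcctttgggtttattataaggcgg
Cd44: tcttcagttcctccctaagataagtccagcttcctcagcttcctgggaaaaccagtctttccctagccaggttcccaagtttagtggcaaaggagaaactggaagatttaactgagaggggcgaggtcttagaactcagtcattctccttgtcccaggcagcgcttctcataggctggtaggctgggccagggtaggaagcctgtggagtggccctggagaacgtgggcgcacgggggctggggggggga
Cav1: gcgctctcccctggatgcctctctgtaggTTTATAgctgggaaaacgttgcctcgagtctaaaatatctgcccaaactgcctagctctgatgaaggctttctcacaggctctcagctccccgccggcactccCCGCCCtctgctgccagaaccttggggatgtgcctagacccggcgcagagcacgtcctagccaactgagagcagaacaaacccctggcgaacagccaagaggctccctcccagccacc

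The Itgb1 window lies at chr8:128685404-128685653 on the plus strand, has 68% G and C, and holds 1 GC box. The Sdc1 window, at chr12:8771146-8771395 on the plus strand with 66% G and C, holds 3 GC boxes. The Cd44 window, at chr2:102901666-102901915 on the minus strand with 56.4% G and C, holds neither motif. The Cav1 window, at chr6:17306085-17306334 on the plus strand with 59.6% G and C, holds 1 GC box and 1 TATA box, both as reverse complements, and no matches overlap. The median of all 32851 RefSeq promoter windows of this length was 52.4% G and C, so each of the 4 windows was above it. A GC box occurred in 32.7% of those windows and a TATA box in 12.4%. Neither the AP-1 motif TGANTCA (6.75% of windows) nor the p53/p63 half-site (7.13% of windows) was found in the 4 windows. These are letter matches in 1 window per gene and are not evidence of binding or of its absence.

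The deposited values are log ratios of the 2 dyes, with the numerator not stated. They were read as Cy5 over Cy3, so values of reversed arrays had their sign turned and every value below is deltaNp63alpha over beta-galactosidase on the log2 scale. This reading is not settled. With Cy3 over Cy5 as the ratio, every turned value would change sign, those of forward arrays included. Forward arrays run the same way whether the ratio is Cy5 over Cy3 or second channel over first. Reversed arrays do not, and the median correlation of deposited forward and reversed values within a pair was 0.6 at low and 0.255 at high calcium over all rows. The part shared by both orientations also varied more over rows than the part that flips with the dye in 6 of 6 pairs, with SDs of 0.37 to 0.912 and of 0.328 to 0.454. With signs kept 763 rows were called at low and 0 at high calcium, against 19 and 101 with reversed arrays turned. If the deposited signs were already turned, Itgb1, Sdc1 and Cd44 would be higher with deltaNp63alpha at both levels, by 0.86, 0.98 and 0.70 at low calcium and by 0.49, 0.18 and 0.59 at high calcium. Cav1 would be at 0.19 at low and -0.18 at high calcium. Every statement below that a gene was lower with deltaNp63alpha, and every rank from the bottom, therefore holds for the Cy5-over-Cy3 reading only. With signs kept Itgb1 was number 94 from the top of 4646 rows at low and 215 of 7263 at high calcium, and Sdc1 was number 35 and 2294. Cd44 was then number 263 and 64, and Cav1 number 1775 and 5087.

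The probe of Trp63, the gene that was transduced, did not show a higher ratio. It read -0.983, -0.999, -0.772, 0.002 and -1.71 on the 5 forward arrays that measured it. On the 4 reversed arrays with a value it read -0.57, 1.91, -0.41 and -1.02 after turning. The fit gave -0.16 ± 0.25 (SE, 2 pairs, limma adjusted p = 0.919) at low and -0.55 ± 0.25 (2 pairs, limma adjusted p = 0.446) at high calcium. The sources used here do not say whether the probe lies in the part of Trp63 that the adenovirus carries, so it does not settle the labels or the direction. The arrays fell into 2 sets by database experiment number. The earlier numbers (low calcium repeat 1, high calcium repeats 1 and 2) held 7869 to 9096 measured probes an array, and the later numbers (low calcium repeats 2 and 3, high calcium repeat 3) held 3366 to 6974.

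Itgb1 was measured on all 12 arrays. At low calcium its forward values were -1.305, 0.15 and 0.01 in repeats 1, 2 and 3, and its reversed values were -1.85, -1.87 and -2.61. All 3 reversed arrays were low, and of the forward arrays only repeat 1 was. At high calcium the forward values were -0.94, -1.01 and 0.63, and the reversed values were -0.80, -1.78 and -1.67. Repeat 3 was the only one at high calcium whose orientations stood on opposite sides of 0. On the 6 reversed arrays between 0.0961% and 1.35% of rows were lower than Itgb1, in the low tail of each. On forward arrays the share was 4.62%, 59.5% and 50.1% at low and 5.26%, 13.9% and 71.4% at high calcium. Forward arrays thus did not all place this integrin subunit in the low tail. Averaged within pairs, the ratios were -1.58, -0.86 and -1.30 at low and -0.87, -1.39 and -0.52 at high calcium, below 0 in 6 of 6 pairs. The fitted ratio was -1.25 ± 0.18 (SE, 3 pairs) at low calcium, 2.37-fold lower with deltaNp63alpha, and -0.93 ± 0.18 (SE, 3 pairs) at high calcium, 1.9-fold lower. From the bottom, Itgb1 was number 8 of 4646 rows at low and 63 of 7263 rows at high calcium.

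Sdc1 had fewer values, 4 on forward and 5 on reversed arrays. At low calcium the forward arrays gave -0.56 and 0.09 in repeats 1 and 2, and the reversed arrays gave -1.43, -2.97 and -2.21 in repeats 1 to 3. The value of -2.97 was the lowest of any of the 4 genes on any array. At high calcium Sdc1 read -0.74 and -0.99 on forward and -0.95 and -1.49 on reversed arrays of repeats 1 and 2, with no value in repeat 3. All 4 of those values were below 0, on both orientations. The complete pairs averaged -0.998 and -1.44 at low and -0.85 and -1.24 at high calcium, so the levels overlapped. The fitted ratio of this proteoglycan was -1.22 ± 0.20 (SE, 2 pairs) at low calcium, 2.33-fold lower with deltaNp63alpha, and -1.04 ± 0.20 (SE, 2 pairs) at high calcium, 2.06-fold lower. It was number 9 from the bottom at low and number 37 at high calcium.

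Cd44 was the least displaced of the 4 genes at both calcium levels with reversed arrays turned. With signs kept Cav1 was the least displaced at low calcium, and at high calcium Cd44 was the most displaced of the 4. Its 6 forward values were -0.77, 0.44 and 1.01 at low and -0.42, -0.33 and 1.52 at high calcium. Its 6 reversed values were -1.32, -1.22 and -0.98 at low and -0.61, -1.22 and -0.91 at high calcium. The reversed values were all below 0, whereas the forward values were below 0 in 3 and above 0 in 3 arrays. The pairs averaged -1.05, -0.39 and 0.01 at low and -0.52, -0.77 and 0.31 at high calcium, below 0 in 4 of 6. The fitted ratio of the hyaluronan receptor was -0.48 ± 0.22 (SE, 3 pairs) at low and -0.33 ± 0.22 (SE, 3 pairs) at high calcium, 1.39-fold and 1.26-fold lower. From the bottom it was number 169 at low and 1043 at high calcium, with 3.62% and 14.3% of rows lower, further up than the other 3 genes at both levels.

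Cav1 was below 0 on every array that measured it, 5 forward and 6 reversed. At low calcium the forward values were -1.49, -0.88 and -0.57 in repeats 1, 2 and 3, and the reversed values were -1.58, -0.68 and -1.82. At this level its forward and reversed values overlapped in range, unlike those of the other 3 genes. At high calcium Cav1 read -1.09 and -1.98 on forward arrays of repeats 1 and 2, and -0.37, -1.99 and -1.20 on reversed arrays of repeats 1 to 3. The pairs averaged -1.53, -0.78 and -1.20 at low and -0.73 and -1.99 at high calcium. The 2 high calcium pairs were the most unequal of any gene here, with an SD of 0.88 against 0.38 over the 3 low calcium pairs. The fitted ratio of caveolin-1 was -1.17 ± 0.22 (SE, 3 pairs) at low calcium, 2.25-fold lower with deltaNp63alpha, and -1.36 ± 0.27 (SE, 2 pairs) at high calcium, 2.57-fold lower. The SE of 0.27 borrows from the low calcium pairs and from all rows, so it understates the spread of the 2 high calcium pairs. Cav1 was number 11 from the bottom at low and number 12 at high calcium.

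**Figure D1:**
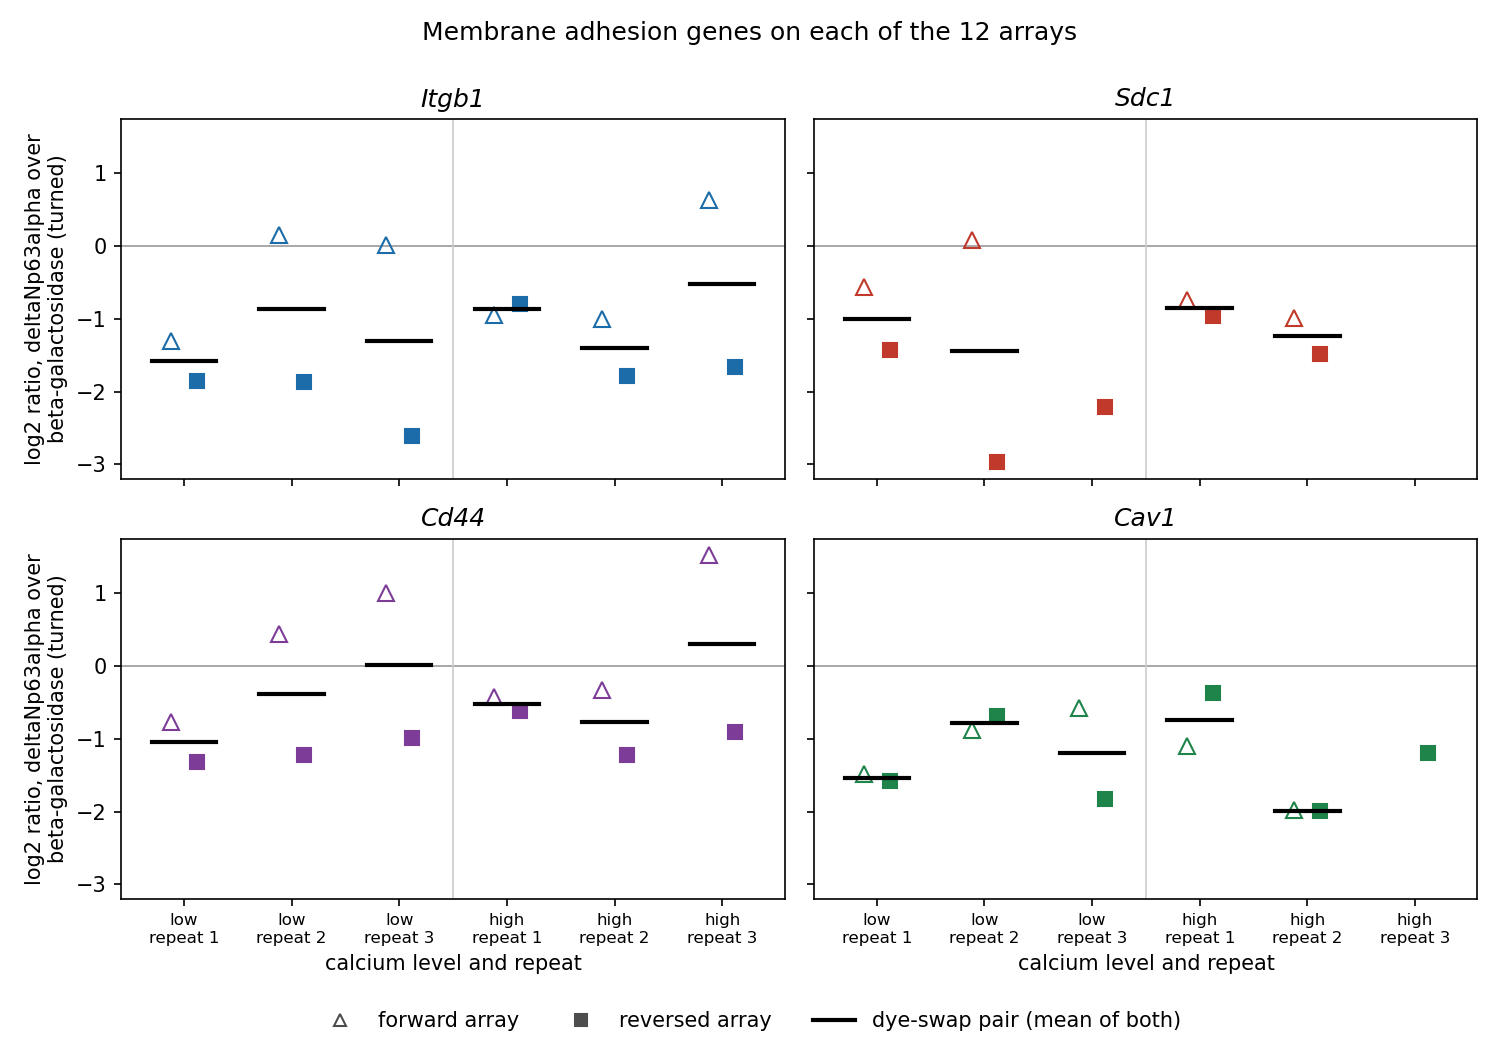
Turned log2 ratios of deltaNp63alpha over beta-galactosidase (vertical axis) of the 4 genes by calcium level and repeat (horizontal axis), with open triangles for forward arrays, filled squares for reversed arrays and black lines for the mean of a complete pair. All 23 reversed values lie below 0, against 14 of 21 forward values, and the 5 forward values of Cav1 are all below 0.

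The order of the fitted ratios, lowest first, was Itgb1, Sdc1, Cav1 and Cd44 at low calcium, and Cav1, Sdc1, Itgb1 and Cd44 at high calcium. Itgb1, Sdc1 and Cav1 stood closer to each other at low calcium than 1 SE of any of them, so their order there carries no information. At high calcium Cav1 and Itgb1 lay further apart, but the ranges of their pairs overlapped. Cd44 stood above the other 3 at both levels. Since the arrays hold ratios and no levels, nothing here says which of the 4 transcripts is the more abundant. The cultures were profiled in bulk, so fewer cells that express a gene and less RNA per cell cannot be told apart.

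The values were also read within each set of arrays. The genes were chosen with these ratios known, so the counts of signs are a description and no evidence. In the earlier, well-filled set all 24 values of the 4 genes were below 0 with reversed arrays turned, on 6 arrays of both orientations. Of the 6699 rows measured on all 6, 7.37% were below 0 on every one. With signs kept the 12 forward values were below 0 and the 12 reversed values above it, and 8.97% of those rows were below 0 and 12.4% above 0 on every array. In the later, sparser set 11 of 11 turned reversed values but only 2 of 9 forward values were below 0, both of them of Cav1. Itgb1 averaged -1.58 (1 pair) at low and -1.13 (2 pairs) at high calcium in the earlier set, and -1.08 (2 pairs) and -0.52 (1 pair) in the later one. Cd44 averaged -1.05 and -0.65 in the earlier set, and -0.19 and 0.31 in the later one. For Cav1 the earlier set gave -1.53 and -1.36 and the later set -0.99 at low calcium, with no complete high calcium pair. For Sdc1 the earlier set gave -0.998 and -1.04 and the later set -1.44 (1 pair) at low calcium only. The part of the array set in the spread of forward values was not tested.

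No difference between the calcium levels was detected for any of the 4 genes. The high-minus-low difference of the log2 ratio was 0.32 for Itgb1 (95% interval -0.24 to 0.88), 0.18 for Sdc1 (-0.44 to 0.79), 0.15 for Cd44 (-0.52 to 0.81) and -0.19 for Cav1 (-0.94 to 0.56). The limma adjusted p was 1 for each. The intervals leave room for a difference of over 0.5 in either direction for Cd44 and Cav1, so the ratios at the levels are not shown to be equal. Over all rows 0% (0 of 4209) passed this test in limma, with 107 at an unadjusted p under 0.05 and a smallest adjusted p of 0.858. The sign of the Cd44, Sdc1 and Cav1 differences changed when single pairs were left out. Calcium level and array set are partly confounded. Low calcium had 1 pair in the earlier set and 2 in the later, and high calcium had 2 and 1. For Sdc1 and Cav1 every complete high calcium pair came from the earlier set. With the array set as a block their differences were -0.044 and 0.17, each with its sign changed.

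The part of the signal shared by both orientations separated Cav1 from the other 3 genes in size. It is the mean of the deposited forward and reversed values of a pair, averaged over the levels, and it would be 0 for a pure ratio read as Cy5 over Cy3. It was 0.68 ± 0.18 (SE, 6 pairs) for Itgb1, with a limma adjusted p = 0.033, and 0.64 ± 0.16 (6 pairs) for Cd44, with a limma adjusted p = 0.0277. For Sdc1 it was 0.58 ± 0.20 (4 pairs) and did not pass, with a limma adjusted p = 0.0663. For Cav1 it was 0.01 ± 0.14 (5 pairs, 95% interval -0.33 to 0.34), with a limma adjusted p = 0.979. Thus 2 of 4 genes were called, where 29.3% of the 4209 rows tested were called, 684 above 0 and 548 below 0. Whether the 4 genes differ from each other in this component was not tested. Both calls were lost without high calcium repeat 3, where the components were 0.51 for Itgb1 and 0.49 for Cd44. They were lost likewise without low calcium repeat 2 (0.64 and 0.61) and without low calcium repeat 3 (0.56 and 0.57).

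Pair by pair, the shared component of Itgb1 was 0.27, 1.01 and 1.31 at low and -0.07, 0.39 and 1.15 at high calcium. That of Cd44 was 0.28, 0.83 and 0.997 at low and 0.09, 0.45 and 1.21 at high calcium. Both genes had their 3 largest values in the 3 pairs of the later array set. The 2 low calcium pairs of Sdc1 gave 0.43 and 1.53 and its high calcium pairs gave 0.11 and 0.25. The component of Cav1 stayed between -0.36 and 0.63 in its 5 pairs, on both sides of 0. Under the reading in which deposited signs are already turned, this shared component is itself the deltaNp63alpha-to-beta-galactosidase ratio.

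**Figure D2:**
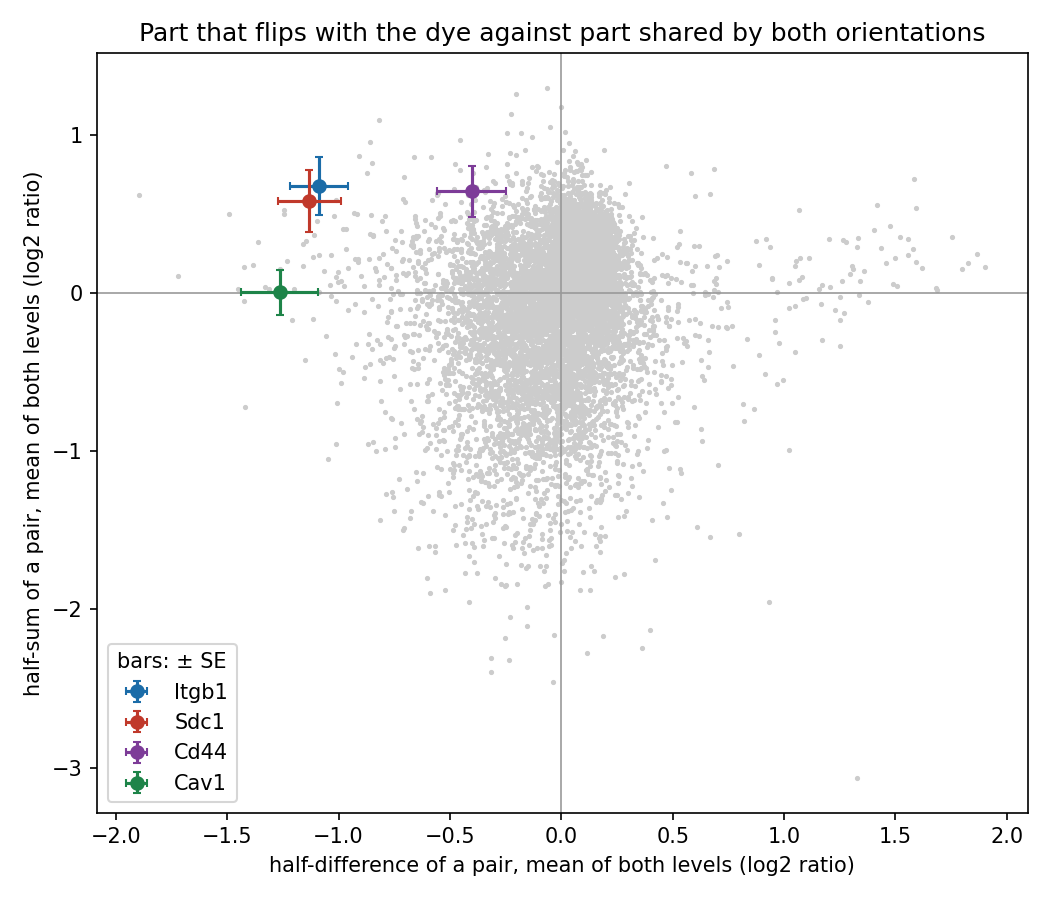
Mean half-difference of the dye-swap pairs (horizontal axis, deltaNp63alpha over beta-galactosidase, log2) against their mean half-sum (vertical axis, component shared by both orientations, log2), each averaged over the calcium levels, for all rows in grey and for the 4 genes in colour with bars of 1 SE. Cav1 lies on the horizontal line at 0.01, whereas Itgb1, Sdc1 and Cd44 lie above it at 0.68, 0.58 and 0.64.

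For each gene the 3 named genes with the most similar deposited profile were listed, by Pearson r over at least 9 arrays. These correlations pool both orientations, so they mix the deltaNp63alpha ratio with the dye. Itgb1 was closest to Tpm2 (r = 0.975 over 11 arrays), Esd (0.973 over 9) and Thbs1 (0.972 over 11) among 3379 genes. Thbs1 encodes the matrix glycoprotein thrombospondin-1 and Tpm2 a tropomyosin, an actin-filament protein. Sdc1 was closest to Farsb (0.976), Esd (0.976) and Trappc3 (0.975), each over 9 arrays and among 2123 genes. Cd44 was closest to Hsp90b1 (0.984), an endoplasmic reticulum chaperone, and to Tubb5 and Ube2b (0.963 each), over 9 arrays and among 3379 genes. Cav1 was closest to S100a9 (0.969 over 9 arrays), a calcium-binding protein of stressed epidermis, then to Thbs1 (0.964 over 10) and Lamtor2 (0.955 over 10), among 3151 genes. Thbs1 stood near both Itgb1 and Cav1, and its own log2 ratio was -1.10 at low and -1.39 at high calcium.

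The partners of the 4 proteins were read from lists of 200 adhesion and caveolar genes, of which 112 had a probe. None of the 60 genes tested at low calcium and none of the 92 tested at high calcium passed the limma threshold of an adjusted p under 0.05 over all rows. Of all rows 0.387% were called lower at low and 0.84% at high calcium, and 0.409% and 1.39% in either direction. The count of partners depended on the processing. With signs kept 12 were called at low calcium, where 16.4% of all 4646 rows tested were called. Among the 12, Itgb4, Pkp1, Rap1b, Sdc4, Src and Zyx were above 0. Itgav, Lamc1, Nid1, Sulf1, Tjp1 and Vtn were below 0. Reversed arrays alone called 8 at low calcium, where 6.18% of all 5340 rows tested were called. At an unadjusted p under 0.05 there were 6 of 60 (10%, against 9.45% of all rows) at low calcium, 5 of them lower with deltaNp63alpha, and 14 of 92 (15.2%, against 11.6%) at high calcium, 12 of them lower. The smallest limma adjusted p was 0.18 at low and 0.0626 at high calcium. The median log2 ratio of the partners was -0.02 at low and -0.04 at high calcium, beside 0.02 and 0.01 over all rows.

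Among other integrin subunits, 6 were tested at low and 9 at high calcium, with medians of 0.01 at both. Itgb4, the beta subunit of hemidesmosomes, had log2 ratios of -0.23 and -0.26, and Itga6, its alpha partner, had 0.06 at high calcium. Itga5, which pairs with integrin beta-1 to bind fibronectin, stood at 0.14 at low and -0.07 at high calcium. With reversed arrays turned, the other integrin subunits tested were all closer to 0 than Itgb1, the widest being Itgav at 0.49 at low calcium. Itgb1 was chosen with its ratio known, so this contrast is no evidence. With signs kept Itgav was at -1.22 at low calcium, further from 0 than Itgb1 at 0.86. The intracellular adaptors of integrins and focal adhesions had medians of -0.08 (12 tested) and -0.15 (17 tested), with Rsu1 lowest at -0.53 and -0.68. Itga3 was among the partners singled out by role and had no named row here.

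Hemidesmosome and basement membrane genes, the matrix side of basal adhesion, had medians of 0.00 (12 tested) and 0.07 (17 tested). Col4a5, a collagen IV chain, was the lowest of them at -0.58 and -0.81 (limma adjusted p = 0.304 and 0.0626). Around Sdc1, the other syndecans, the glypicans and the heparan sulphate enzymes had medians of 0.15 (6 tested) and 0.04 (11 tested). Sdc4, the other syndecan measured, was at 0.17 and 0.20 (limma adjusted p = 0.823 and 0.731), so no difference from 0 was detected. With reversed arrays turned it stood on the opposite side of 0 from Sdc1. With signs kept Sdc4 was at 0.77 and Sdc1 at 0.98 at low calcium, on the same side. Sdcbp, which encodes the syndecan-binding protein syntenin, was at -0.71 at high calcium (limma adjusted p = 0.146).

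Around Cd44, the hyaluronan genes and the proteins that link CD44 to actin had medians of -0.10 (8 tested) and -0.14 (10 tested). Ezr encodes ezrin, one of those linkers, and was at -0.84 at high calcium (limma adjusted p = 0.0904), further from 0 than Cd44. Mmp14, a membrane protease that can cut CD44, was at -0.34 and -0.23. Around Cav1, other genes of caveolae and lipid rafts had medians of 0.02 (7 tested) and -0.15 (11 tested). Pacsin3 and Stom were lowest at high calcium, at -0.66 and -0.55, and Scarb1 was highest at 0.36. Cav2 and Cavin1, whose products build caveolae together with caveolin-1, had no named row and were not analysed here, and neither was Msn, whose product moesin links CD44 to actin.

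Cell-cell adhesion genes, which do not bind the same ligands, were listed for contrast and had medians of 0.00 (10 tested) and -0.18 (18 tested). Cdh3, encoding P-cadherin of basal keratinocytes, was at -0.64 at low calcium (limma adjusted p = 0.18). Cdh1, encoding E-cadherin, was at -0.70 at high calcium (limma adjusted p = 0.0667), and Ctnna1, encoding the alpha-catenin that joins cadherin complexes to actin through beta-catenin, was at -0.47 and -0.50. Pkp1, a desmosomal plakophilin, was at -0.51 at low calcium (limma adjusted p = 0.285). Cdh1 and Col4a5 passed at high calcium in several alternative fits, for example without low calcium repeat 1. In that fit their ratios were unchanged, at -0.70 and -0.81, and only the pooled spread and the adjustment differed.

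**Figure D3:**
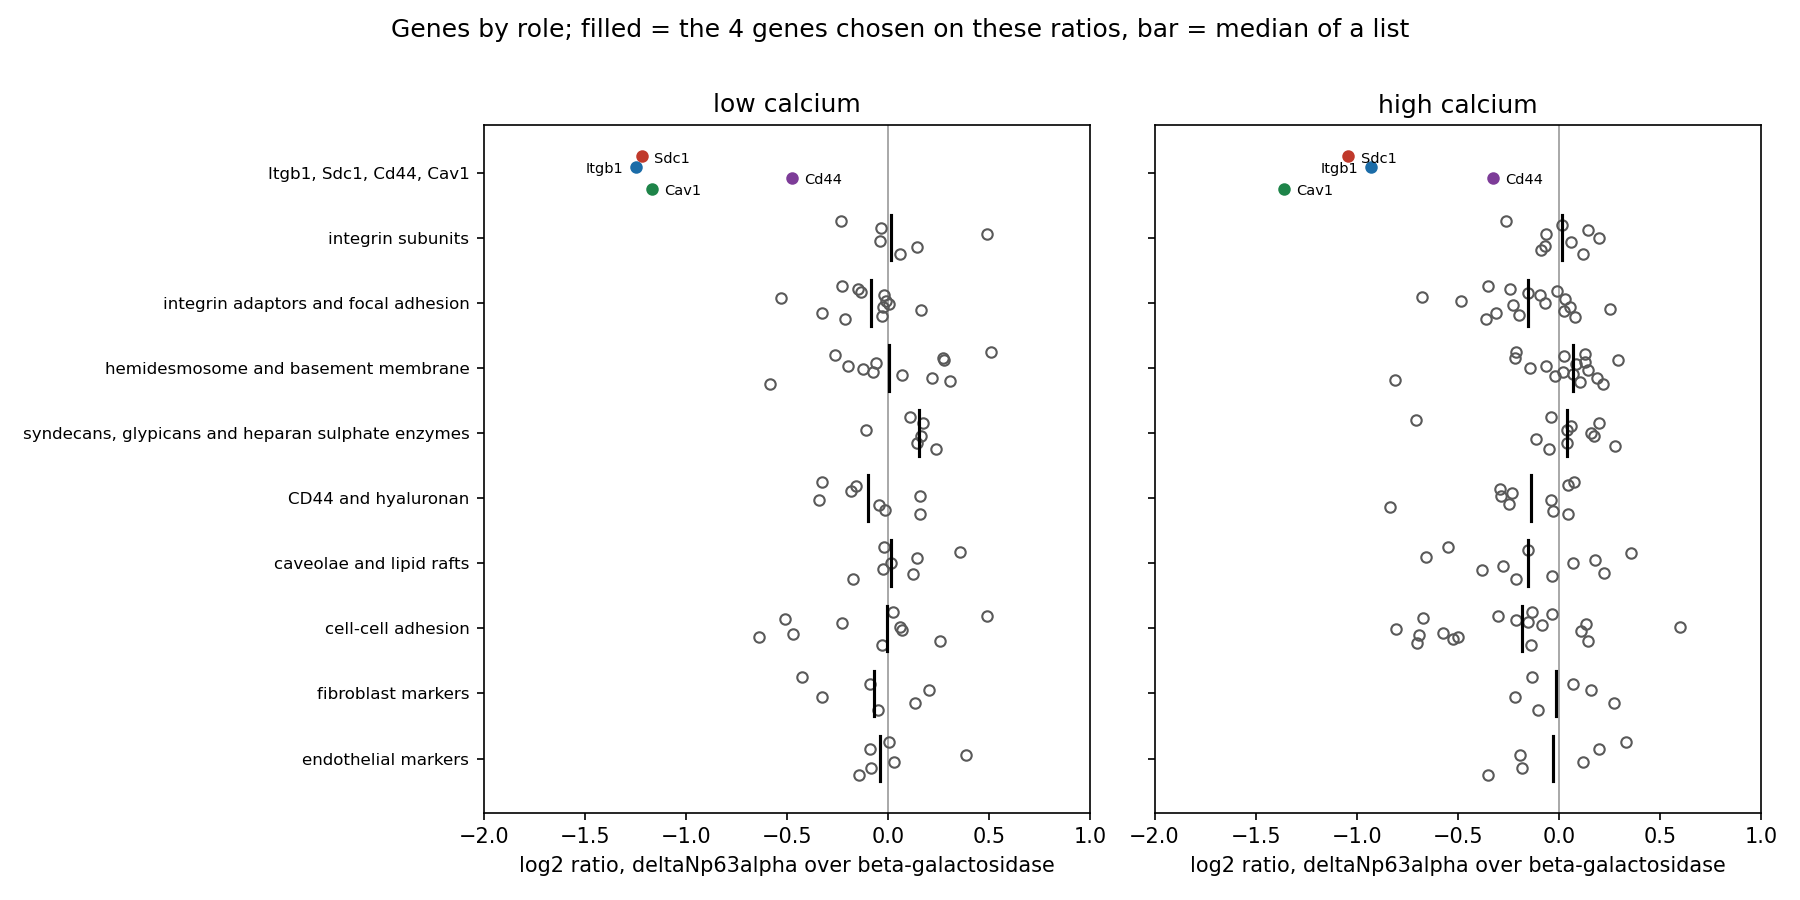
Fitted log2 ratios of deltaNp63alpha over beta-galactosidase (horizontal axis) at low calcium (left) and high calcium (right), with 1 point per gene in rows by role, filled for the 4 genes, and a bar at the median of each other list. The 4 genes were chosen with these ratios known, so their place to the left is no evidence. The other adhesion lists and the fibroblast and endothelial markers centre between -0.18 and 0.15.

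Markers of other cells that a skin culture can hold were read beside these ratios. Fibroblasts and endothelial cells also express Itgb1, Cd44 and Cav1. Of 15 fibroblast markers 9 had a probe and 6 were tested at each level. Their log2 ratios ran from -0.43 to 0.20 at low and from -0.22 to 0.27 at high calcium, and none was called. Of 10 endothelial markers 7 had a probe and 6 were tested, with medians of -0.04 and -0.03 and none called. None of 7 and 8 immune markers tested or of 2 melanocyte markers tested was called either. Of 15 keratinocyte markers 9 had a probe, and 5 were tested at low and 8 at high calcium. Krt10, a keratin of differentiating cells, was the only one called, at -1.575 at high calcium (2 pairs, reversed arrays turned). Krt10 was not tested at low calcium. Ratios give no level of a marker, so the summed level of each marker list in the cultures is unknown and its part in the ratios of the 4 genes was not tested.

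**Figure D4:**
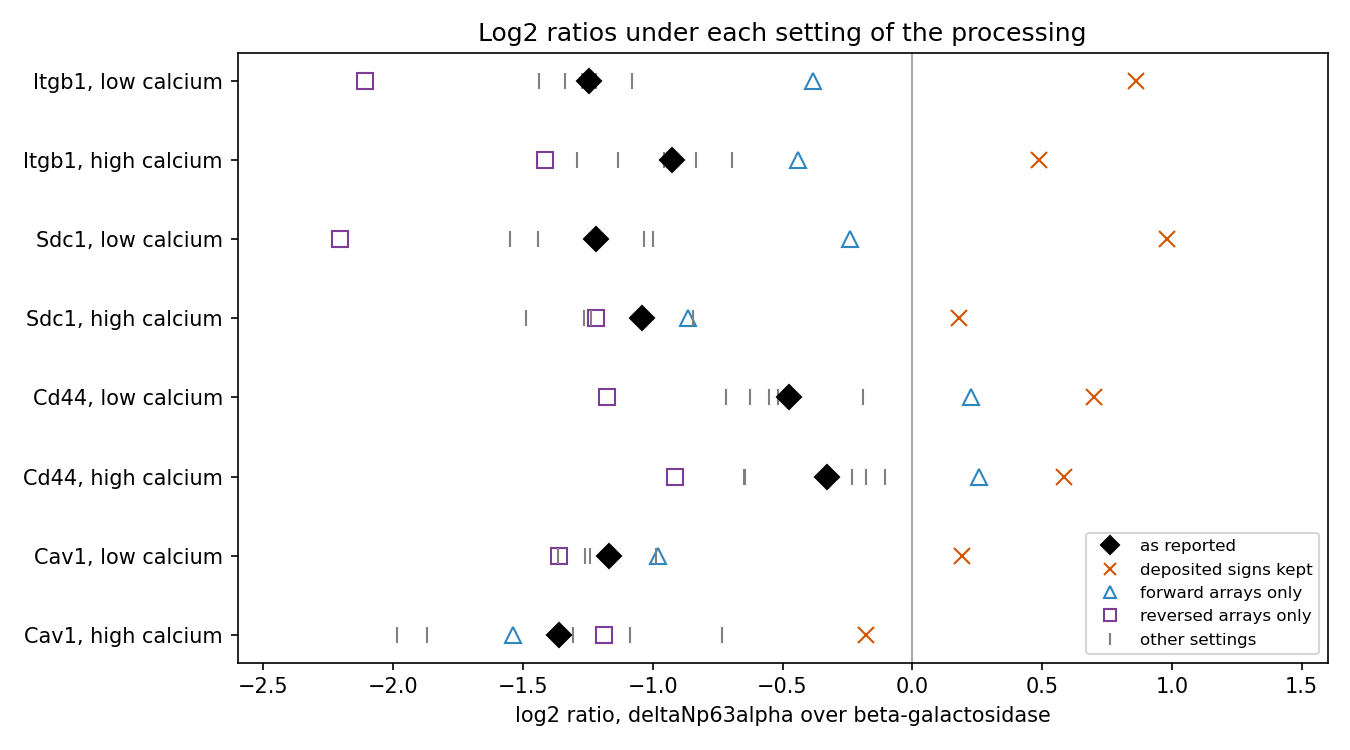
Log2 ratio of deltaNp63alpha over beta-galactosidase (horizontal axis) of each gene and calcium level (rows) as reported (diamond), with deposited signs kept (cross), from forward arrays (triangle) or reversed arrays (square) alone, and under the other settings tried (grey ticks). Every setting that turns the reversed arrays and uses both orientations lies below 0 for all 4 genes, the forward arrays alone put Cd44 above 0 at 0.23 and 0.26, and with signs kept all values except Cav1 at high calcium lie above 0.

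The 2 orientations taken alone gave different sizes. From reversed arrays alone the low calcium ratio was -2.11 for Itgb1, -2.20 for Sdc1, -1.18 for Cd44 and -1.36 for Cav1. From forward arrays alone it was -0.38, -0.24, 0.23 and -0.98 in the same order of genes. Cav1 differed least between the orientations at low calcium, and Cd44 changed sides. At high calcium Cav1 was at -1.19 from reversed and -1.54 from forward arrays, the only one of the 4 genes that was lower on forward arrays. The direction of forward arrays does not depend on how reversed values were stored. It does depend on which dye was the numerator, which is not stated.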

How the data were processed

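The authors deposited 1 log2 dye ratio per probe and array. No source used here states the log base, which was taken as 2 from the range of -7.88 to 4.60, or how spots were scanned, corrected, normalised and filtered. Array medians between -5e-04 and 5e-04 show that the values came centred. Per the labels' protocols, total RNA was labelled with a Genisphere kit.

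Of 9558 probes, 7457 had 1 symbol in the platform annotation, 481 had several and 1620 were unlisted; 7368 symbols were updated by gene ID to GRCm38.p6. Averaging probes that share a symbol gave 6774 genes, beside 2101 unnamed rows. Each array was centred on its median, reversed arrays were turned, and a pair was the mean of its forward and turned reversed values, missing where 1 was absent. The 6 pairs were fitted by calcium level with limma 3.58.1 in R 4.3.3 (lmFit, eBayes), a row needing at least 2 pairs in a level, and adjusted by Benjamini-Hochberg over all rows. The median row had 2 residual degrees of freedom, and eBayes added 9.555. On simulated pairs, planted changes of 1 (log2) were recovered in 94% of cases at low calcium (4646 rows, 5.49% false calls). At high calcium 84% were recovered (7263 rows, 6.21% false). Changes of 0.5 were recovered in only 20% of cases at low and 12% at high calcium. The simulated noise was independent between rows and had no array sets, and 50 rows were changed at each planted size. Recovery in the measured data can therefore be lower. The number of arrays limits the precision.

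The members and lists were chosen with earlier results of these data known, as was the turning of reversed arrays. Named genes were the 4 genes, Trp63, list genes called in any setting given, the 3 list genes of smallest unadjusted p per level, Itga6, Itga3, Itgb4, Sdc4, Cav2, Cavin1, Ezr and Msn by role, and each gene's 3 nearest profiles; Itga5, Itgav, Rsu1, Sdcbp, Mmp14, Pacsin3, Stom and Scarb1 were added after their values were seen. Promoters come from RefSeq (GRCm38.p6), with all 4 genes matched. Alternatives were the kept signs, each orientation alone, each pair left out, incomplete pairs kept, scaled arrays, no centring, a repeat or array-set block, another variance model, 1 pair per level and single probes.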

Additional observations from a re-analysis of the deposited data

How the results depend on the processing

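The ratios of all 4 genes, with reversed arrays turned, stayed below 0 at each level when any pair was left out. For Itgb1, Sdc1 and Cav1 this outcome was fixed, because each of their complete pairs was below 0. Leaving out a pair of the other calcium level does not change a ratio. Over the 6 leave-outs the low calcium ratio ran from -1.44 to -1.08 for Itgb1, -1.44 to -0.998 for Sdc1, -0.72 to -0.19 for Cd44 and -1.37 to -0.99 for Cav1, and the high calcium ratio from -1.13 to -0.69, -1.24 to -0.85, -0.65 to -0.11 and -1.99 to -0.73. The high-minus-low difference ran from 0.11 to 0.55 for Itgb1, -0.044 to 0.40 for Sdc1, -0.17 to 0.39 for Cd44 and -0.82 to 0.43 for Cav1. The shared component ran from 0.51 to 0.82 for Itgb1, 0.31 to 0.85 for Sdc1, 0.49 to 0.77 for Cd44 and -0.10 to 0.096 for Cav1. Where a leave-out left Sdc1 or Cav1 with 1 pair at a level, the value had no test. Rows called ran from 6 (without low calcium repeat 1) to 51 (without high calcium repeat 2) at low calcium, where 19 were called, from 33 (without high calcium repeat 1) to 151 at high calcium, where 101 were called, and from 0 to 1 for the difference. The share of tested rows called for the shared component ran from 9.99% (without low calcium repeat 3) to 48.4% (without low calcium repeat 1), against 29.3% with all pairs. Other adhesion and caveolar genes called ran from 0 to 2 at each level, the 2 being Cdh3 and Col4a5 at low and Cdh1 and Col4a5 at high calcium. With deposited signs kept, the ratios at low and high calcium were 0.86 and 0.49 for Itgb1, 0.98 and 0.18 for Sdc1, 0.70 and 0.59 for Cd44, and 0.19 and -0.18 for Cav1, the differences were -0.38 (Itgb1), -0.80 (Sdc1) and -0.12 (Cd44), 763 rows were called at low and 0 at high calcium, and 12 list genes at low calcium. Forward arrays alone gave -0.38 and -0.44 for Itgb1, -0.24 at low calcium for Sdc1, 0.23 and 0.26 for Cd44, differences of -0.0575 (Itgb1) and -0.62 (Sdc1), 33 and 0 rows called, and 1 list gene (Vtn) at low calcium. Reversed arrays alone gave -2.11 and -1.41 for Itgb1, -2.20 at low calcium for Sdc1, -1.18 and -0.91 for Cd44, a difference of 0.17 for Cav1, 330 and 1 rows called, and 8 list genes at low calcium. With incomplete pairs kept, Sdc1 was at -1.55 at low calcium and 0 rows were called at either level. With arrays scaled to 1 spread, Sdc1 was at -1.49 at high calcium, the differences were -0.10 (Cd44), -0.022 (Itgb1) and -0.45 (Sdc1), the shared component of Sdc1 passed at 0.63, and 0 and 1 rows were called. With a trended, robust variance the shared component of Sdc1 passed at 0.58 and 0 rows were called at either level. With the array set as a block, the differences were 0.17 (Cav1) and -0.044 (Sdc1), the shared component of Sdc1 passed at 0.85, 46 rows were called at low calcium, 1 for the difference (Serping1) and 56.5% of tested rows for the shared component, and 1 list gene (Col4a5) at high calcium. With 1 pair per level enough, 51 rows were called at low calcium, 1 (Whamm) for the difference and 16.5% for the shared component, and with each probe on its own 2 list genes (Cdh1 and Col4a5) at high calcium. The cause of these changes was not tested.

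With the repeat number as a replicate block, 60 rows were called at low calcium, 209 at high calcium and 2 (Il33 and Serping1) for the difference, 4 list genes (Cdh1, Col4a5, Ezr and Gja1) were called at high calcium, and the shared component of Sdc1 passed at 0.58. The repeat numbers do not pair the levels: same-numbered pairs correlated at -0.03, -0.11 and 0.20 in their deviations over 1381 rows, and only repeat 3 correlated best with its own number.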
